A study of Homo sapiens with 8 samples.

Results

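The distal end of the long arm of chromosome 10 was described by its accessible chromatin in A2780 cells, a long-established line from a human ovarian tumour, and in 3 lines derived from them that resist chemotherapy. The members were all consensus peaks of chromosome 10 whose midpoint lay above 130000000 on hg38, which gave 381 of 159451 peaks, with 7701 peaks on the rest of the chromosome. The members were selected on the CpR minus Control difference in CPM: the stretch was chosen because its signal was lower in cisplatin-resistant cells than in control cells, so that contrast is given as a description with no test. All 381 members passed the filter on low values (at least 1 CPM in at least 2 libraries).

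Open DNA was mapped by ATAC-seq, where a transposase cuts accessible chromatin and tags the cut ends for sequencing. The 4 groups had 2 libraries each: untreated wild-type A2780 (Control), and wild-type A2780 derivatives resistant to cisplatin (CpR), to paclitaxel (TxR) or to both drugs (TxCpR), labelled with those drugs as treatment. Cisplatin crosslinks DNA and paclitaxel stabilises microtubules. The labels give neither doses nor the number of clones behind a line, and do not say whether 2 libraries of 1 group are separate cultures, so p-values measure only the spread between these libraries, which may be technical.

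The libraries held 7693492 to 9304798 reads in peaks, and 12666 to 23991 of these lay in members. Values are CPM, read counts scaled to the library's total in peaks, and 1 read was worth at least 0.107 CPM. Of 9 markers of ovarian epithelial cancer, 8 had a promoter peak, MUC16 had none, and PAX8 stood at 1.03 CPM in Control, 4.01 CPM in CpR, 0.636 CPM in TxR and 1.68 CPM in TxCpR. The list summed to 61.8, 53.3, 39.3 and 52.1 CPM in the same order. Of 5 blood cell markers 4 had one, but PTPRC had none, and their sums were 29.5 to 38.7 CPM over the groups. Of 4 endothelial markers KDR had one (10.6 CPM in Control and 1.57 to 3.08 CPM in the resistant lines). All 6 fibroblast markers had one, with sums of 34.5 CPM in Control, 71.3 CPM in CpR, 73.1 CPM in TxR and 49.5 CPM in TxCpR. Different genes made up the higher sums. In CpR, PDGFRB (26.1 against 5.18 CPM in Control) and COL1A1 (35.7 against 20.4 CPM) were higher, while COL1A2 was lower (3.32 against 6.02 CPM). In TxR, LUM (25.8 against 1.42 CPM) and DCN (14.8 against 0.515 CPM) were higher, while COL1A1 and PDGFRB were lower. COL3A1 was higher in every resistant line. The part of these markers in the results was not tested. In a bulk library, fewer copies of a stretch of DNA, fewer cells in which it is open and less openness per cell cannot be told apart.

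Chromosome ends are gene-rich in many places and close with repeats that several chromosomes share. The end of 10q carries a tandem array of D4Z4 repeats, each with a DUX4-like gene copy, and a near-identical array lies at the end of 4q. DUX4 is a germline and early-embryo transcription factor whose repeats are normally kept closed in body cells. Proximal to the array lie housekeeping, neuronal and germ-cell genes, among them BNIP3, a mitophagy receptor gene, ECHS1, a gene of mitochondrial fatty acid oxidation, and CYP2E1, which encodes a cytochrome P450 that oxidises ethanol.

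The sequences upstream of 6 gene starts are shown because their peaks carry the pattern: C10orf143 lay before the drop in CpR signal, PPP2R2D was the closest gene with a peak behind it, BNIP3, ZNF511 and MTG1 were among the stronger promoters, and VENTX had one of the lowest CpR to Control ratios. Each is the 250 bases before the start in the gene's direction (RefSeq, GRCh38.p14, the same build as hg38), with matches to searched motifs on either strand in capitals. The ZNF511 window holds no match.

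C10orf143, chr10:130110831-130111080, minus strand: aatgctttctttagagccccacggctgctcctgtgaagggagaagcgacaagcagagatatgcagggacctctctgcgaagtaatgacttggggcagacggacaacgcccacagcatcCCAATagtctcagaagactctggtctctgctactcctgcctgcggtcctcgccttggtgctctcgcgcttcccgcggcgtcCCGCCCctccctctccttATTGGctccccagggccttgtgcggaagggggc
PPP2R2D, chr10:131900758-131901007, plus strand: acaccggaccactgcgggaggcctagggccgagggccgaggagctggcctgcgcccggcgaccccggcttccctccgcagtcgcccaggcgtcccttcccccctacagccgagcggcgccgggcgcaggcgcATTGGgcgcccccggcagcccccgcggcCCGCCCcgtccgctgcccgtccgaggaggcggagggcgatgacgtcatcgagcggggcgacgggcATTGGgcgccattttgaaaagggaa
BNIP3, chr10:131981924-131982173, minus strand: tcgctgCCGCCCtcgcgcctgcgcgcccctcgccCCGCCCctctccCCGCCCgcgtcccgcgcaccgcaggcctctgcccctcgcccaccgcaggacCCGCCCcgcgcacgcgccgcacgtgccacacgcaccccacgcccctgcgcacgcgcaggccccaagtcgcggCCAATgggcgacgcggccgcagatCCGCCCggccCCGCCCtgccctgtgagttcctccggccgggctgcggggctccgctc
VENTX, chr10:133237605-133237854, plus strand: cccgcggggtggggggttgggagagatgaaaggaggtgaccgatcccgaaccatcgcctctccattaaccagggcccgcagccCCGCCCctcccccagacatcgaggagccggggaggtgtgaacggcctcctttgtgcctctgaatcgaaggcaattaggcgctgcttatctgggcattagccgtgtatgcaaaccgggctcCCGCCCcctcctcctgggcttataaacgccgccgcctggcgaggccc
ZNF511, chr10:133308664-133308913, plus strand: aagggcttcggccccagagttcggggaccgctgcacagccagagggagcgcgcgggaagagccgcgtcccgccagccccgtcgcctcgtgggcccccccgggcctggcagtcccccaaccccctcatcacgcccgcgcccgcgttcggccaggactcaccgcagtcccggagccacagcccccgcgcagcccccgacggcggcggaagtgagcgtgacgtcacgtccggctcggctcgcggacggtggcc
MTG1, chr10:133393907-133394156, plus strand: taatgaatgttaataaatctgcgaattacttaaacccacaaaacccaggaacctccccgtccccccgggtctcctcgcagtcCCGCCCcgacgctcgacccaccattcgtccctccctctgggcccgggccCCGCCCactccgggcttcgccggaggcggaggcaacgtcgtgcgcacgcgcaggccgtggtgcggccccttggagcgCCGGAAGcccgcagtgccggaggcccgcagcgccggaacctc

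The motifs searched on both strands were the AP-1 site TGANTCA, the CCAAT box, the GC box GGGCGG, the ETS site CCGGAAG and the NRF1 palindrome, none of which contains another. Of the 33 protein-coding genes of the region, 26 had an upstream window in the RefSeq table. These windows were rich in G and C, with a median of 72.8% against 62.4% over all 15813 windows. A GC box stood in 20 of the 26 and in 56.0% of all windows. A CCAAT box stood in 8 of the 26 against 34.4% of all, an ETS site in 1 against 11.8%, an NRF1 site in 1 against 1.49%, and no AP-1 site was found against 5.05% of all. The C10orf143 window, whose peak was not lower in CpR, held 2 CCAAT boxes and 1 GC box. Those of PPP2R2D (2 and 1) and BNIP3 (1 and 6), whose peaks were lower, held both motifs as well. These matches describe the letters of the windows only.

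Over the whole stretch, the summed signal of the members was 2982 and 3005 CPM in the Control libraries, 1462 and 1481 CPM in CpR, 2040 and 2055 CPM in TxR and 2545 and 2578 CPM in TxCpR. The 4 groups did not overlap, in the order Control, TxCpR, TxR, CpR. Relative to the Control mean the sums were 0.492 in CpR, 0.684 in TxR and 0.856 in TxCpR. The 48 members from 3.5 Mb past the limit to the end, where the DUX4-like repeats lie, weighed heavily in these ratios. They averaged 924 CPM in Control, where all members averaged 2993 CPM. Without them the ratios were 0.546 in CpR, 0.831 in TxR and 0.953 in TxCpR. CpR had the lowest mean of the 4 groups in 295 of the 381 members and TxR in 62, while Control had the highest mean in 191 and TxCpR in 137.

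In CpR the median log2 difference from Control over the members was -1.07, on the scale of log2(CPM + 0.5), against -0.09 over all 158698 tested peaks and 0.11 over the rest of chromosome 10. Both CpR libraries lay below both Control libraries in 305 members (80.1%), where 34.5% of all tested peaks did so. They lay above both in 24 members, where 29.8% of all peaks did. Since the stretch was picked for this contrast, these shares only describe it. The middle 50% of members lay between -1.49 and -0.63, and 343 of 381 were below 0.

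The difference was present in every kind of peak. Its median was -1.28 in 27 promoter peaks (within 1 kb of an annotated start), -1.05 in 186 peaks inside genes and -1.05 in 168 peaks outside genes; over all tested peaks these medians were -0.21, -0.03 and -0.09. By strength, it was -1.02 in 192 members under 3 CPM, -1.13 in 152 members of 3 to 10 CPM and -0.99 in 37 members of 10 CPM or more. Over all tested peaks of these strengths the medians were 0.07, -0.20 and -0.21.

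The lower CpR signal did not begin at the limit of the stretch. The 18 members in the first 0.5 Mb past the limit summed to 193 and 190 CPM in Control and to 213 and 226 CPM in CpR, so both CpR libraries were the higher ones there. Their median log2 difference was 0.08, and 5 of them were higher and 2 lower without overlap. The strongest of them, at the C10orf143 start (chr10:130110526-130111526), stood at 103 and 98.0 CPM in Control and at 119 and 136 CPM in CpR. The peak of GLRX3, which encodes an iron-sulfur glutaredoxin (chr10:130136043-130137043), stood at 16.6 and 16.0 CPM in Control and at 12.8 and 19.2 CPM in CpR, where the libraries overlapped.

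The last members of this zone differed in direction, but they were weak, so the place of the change is loosely set. Members higher in CpR also occurred farther out. The peak at chr10:130463259-130464259 was still higher in CpR (3.15 and 3.51 CPM, against 0.650 and 0.515 CPM in Control). The next one, at chr10:130484437-130485437, was lower (0.225 and 0.468 against 1.04 and 2.57 CPM). All 3 members of the sparse stretch from 0.5 to 1.5 Mb past the limit were lower, with a median of -1.46, but they held at most 3.99 CPM in any Control, CpR or TxR library. Farther out the median was -1.11 from 1.5 to 2 Mb (35 peaks), -1.08 to 2.5 Mb (98 peaks), -0.91 to 3 Mb (66 peaks) and -1.03 to 3.5 Mb (113 peaks). In the last zone, from 3.5 Mb past the limit to the end (48 peaks), it was -1.52.

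**Figure D1:**
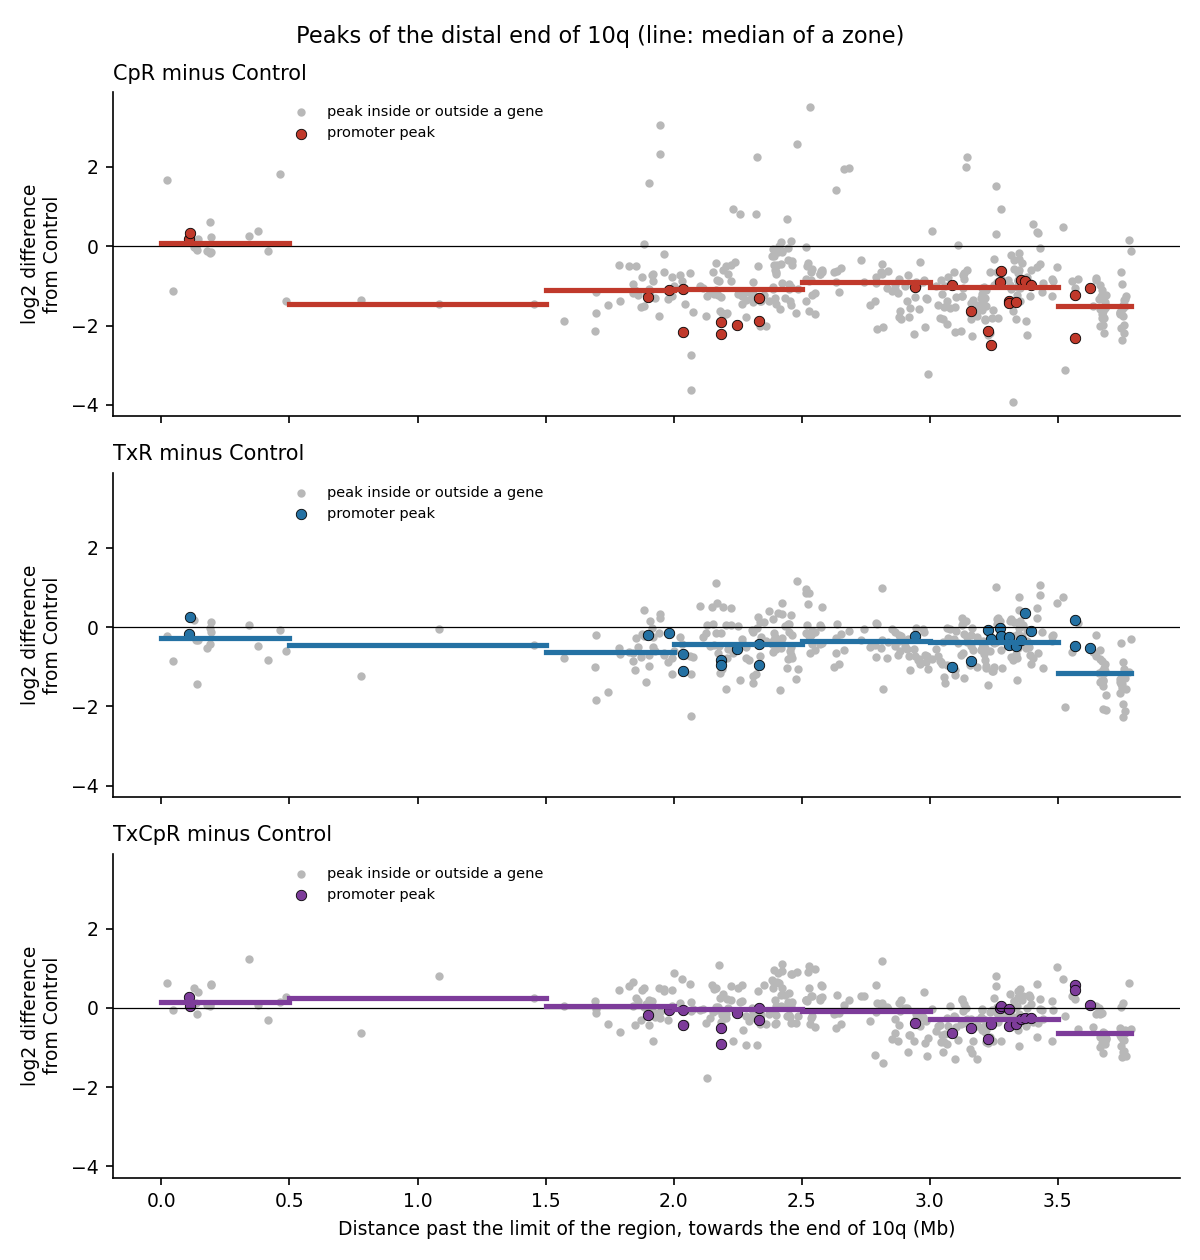
Log2 difference from Control of each member (y axis) against its distance in Mb past the limit of the stretch (x axis), 1 panel per resistant line, with promoter peaks in colour and a bar at the median of each zone. The CpR bar drops from 0.08 in the first zone to between -1.52 and -0.91 in the later ones, while the TxR bar drops to -1.16 only in the last zone.

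Signal just before the limit was closer to Control, but this did not hold along the whole near side. The 3 peaks just outside it had CpR differences of -0.92 at the EBF3 promoter (a neuronal transcription factor gene), -0.73 and -0.02, and the 3 just inside it had 1.68, -1.12 and 0.18. In bins of 1 Mb the CpR median was 0.06, 0.10 and -0.23 in the 3 bins before the limit (the last with 19 peaks), -0.02 in the first bin past it (19 peaks) and then -1.12, -1.02 and -1.24 in the last 3 bins. Farther from the end it was 0.30 from 125 to 126 Mb (82 peaks) and 1.20 from 126 to 127 Mb (29 peaks). In the latter bin the sums were 74.3 and 77.0 CPM in Control and 141 and 137 CPM in CpR. Among the 9 neighbour genes with a peak, which share 8 peaks, the median was -0.17. The start of MGMT, which encodes a DNA repair methyltransferase, stood at 11.8 and 13.4 CPM in Control and at 9.90 and 15.1 CPM in CpR. The start of the proliferation gene MKI67 stood at 30.7 and 28.7 against 28.1 and 23.9 CPM.

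**Figure D2:**
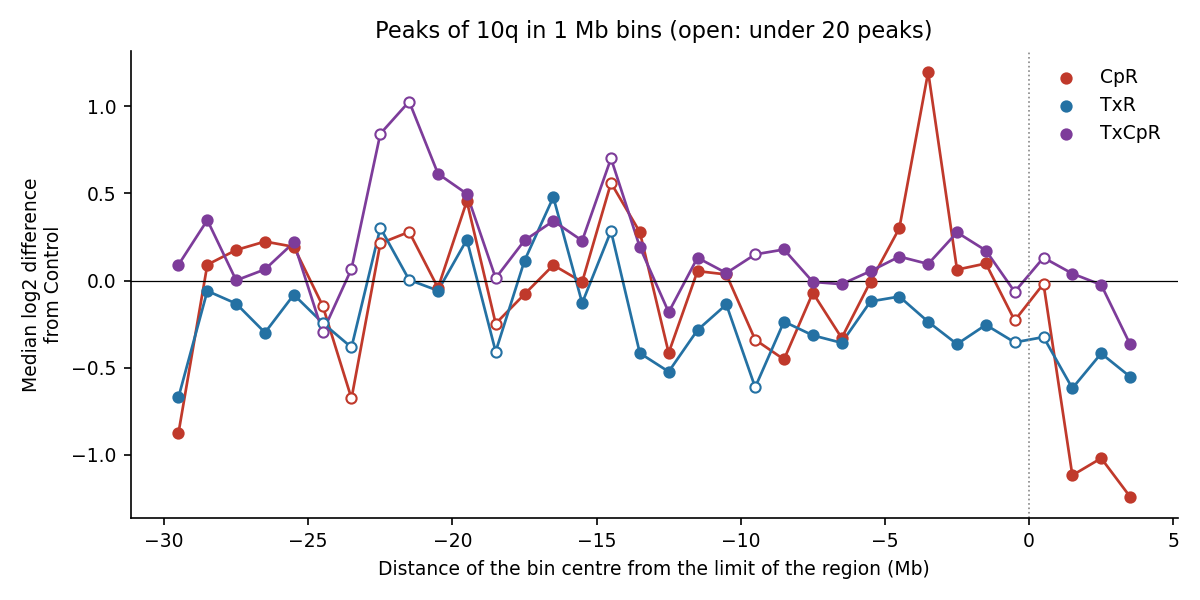
Median log2 difference from Control of the tested peaks in 1 Mb bins (y axis) along the last 34 Mb of 10q, by distance of the bin centre from the limit (x axis, Mb), 1 line per resistant line, with open points for bins under 20 peaks. The CpR line falls from -0.02 to between -1.24 and -1.02 in the last 3 bins, a level it also neared in the bin farthest from the end (-0.87). It rises to 1.20 in the bin from 126 to 127 Mb (29 peaks).

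Set against the genome, the stretch had the second-lowest CpR median of 595 bins of 5 Mb (-1.07), behind the end of 4q (-1.16, 41 peaks). It ranked 37 in TxR (-0.46) and 53 in TxCpR (-0.12). Against the last 3.79 Mb of each of 23 long arms, it was the lowest in CpR and in TxR and ranked 3 in TxCpR. The next long arms in CpR were 2q (-0.83) and 11q (-0.62), and in TxR 4q (-0.44) and 3q (-0.32). These ranks describe the choice of the stretch and were not tested.

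All gene peaks more than 0.5 Mb past the limit were lower in CpR. A gene peak is the strongest peak within 1 kb of the gene's start or, for 7 genes without a strand in the table, of either gene end. They numbered 23, for 24 of 30 genes, and each had both CpR libraries below both Control libraries. The 0.5 Mb break was chosen after the CpR values were seen, so this count only describes them. Over all tested promoter peaks this share was 49.5%. That share covers every peak near a known start, not only the strongest per gene, and leaves out genes without a strand. The CpR level was a median of 0.380 of the Control level and ranged from 0.0724 for SYCE1, a gene of the meiotic synaptonemal complex, to 0.573 for PAOX, a polyamine oxidase gene. The 3 gene peaks before that point had ratios of 0.896 to 1.27. In TxR, the same 23 peaks had a median ratio of 0.810 and a range of 0.415 to 1.28, and in TxCpR a median of 0.834 and a range of 0.495 to 1.43. By limma, with Benjamini-Hochberg adjustment over all tested peaks, 4 of the 23 were lower than Control in TxR and 2 in TxCpR, where 9.47% and 12.3% of all promoter peaks were lower. Genes under 10 CPM named below were chosen after their values were seen.

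**Figure D3:**
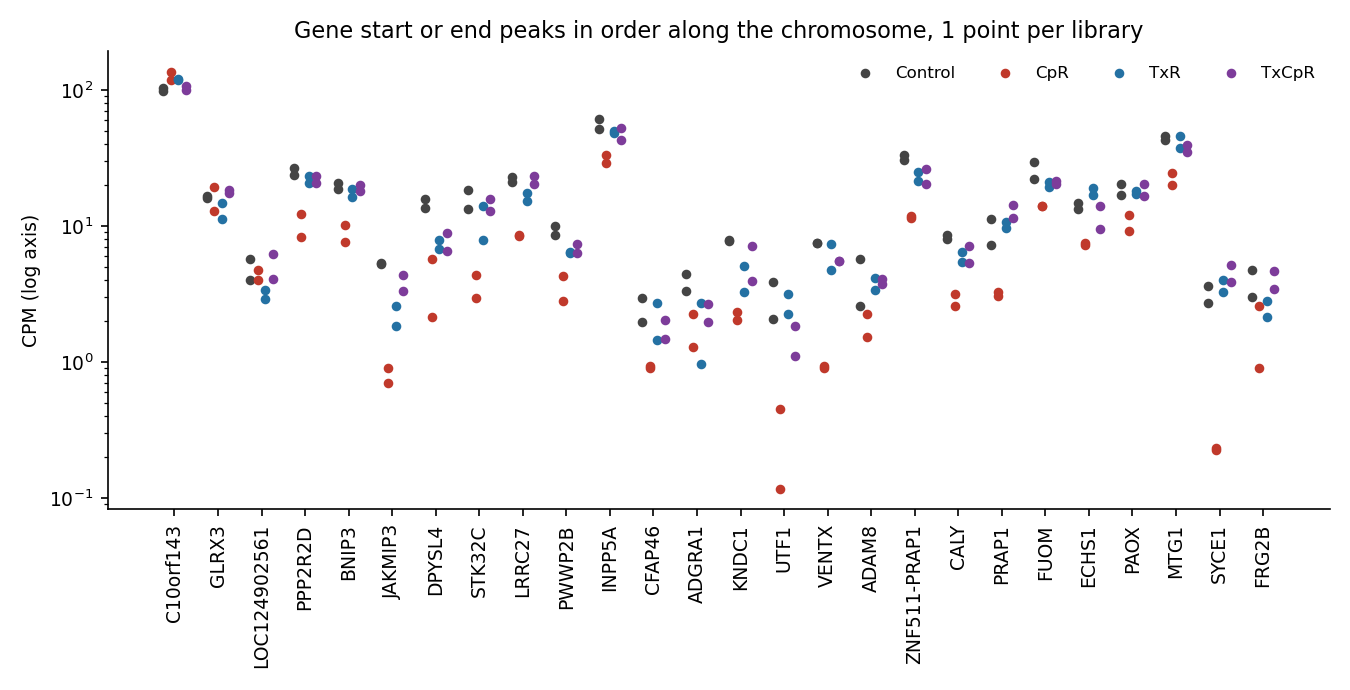
CPM (log axis) of the 26 gene peaks of the region's protein-coding genes, in order along the chromosome (x axis), with 1 point per library coloured by group. From PPP2R2D on, both CpR libraries lie below both Control libraries at every gene, while at C10orf143 they lie above.

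In the list of redox and mitochondrial genes, 3 of 4 peaks were lower in CpR. BNIP3 (chr10:131981284-131982284) stood at 20.8 and 18.5 CPM in Control, 7.65 and 10.2 CPM in CpR, 18.7 and 16.4 CPM in TxR and 18.1 and 19.99 CPM in TxCpR. MTG1, a gene for a GTPase of mitochondrial ribosome assembly (chr10:133393794-133394794), stood at 45.9 and 43.1 CPM in Control and at 20.1 and 24.4 CPM in CpR. Its values were 37.5 and 45.6 CPM in TxR and 39.1 and 35.1 CPM in TxCpR. At both genes the CpR libraries were the lowest of all 8, and neither gene passed the test in TxR or TxCpR (adjusted p = 0.159 to 0.908).

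ECHS1 (chr10:133372875-133373875) differed between the 2 paclitaxel-resistant lines. It stood at 13.4 and 14.7 CPM in Control, 7.54 and 7.25 CPM in CpR, 16.9 and 19.1 CPM in TxR and 9.52 and 14.0 CPM in TxCpR. It was lower in TxCpR than in TxR (log2 difference -0.62, SE 0.19, adjusted p = 0.0120). The adjusted p was 0.132 without the second TxR library and 0.323 without the first TxCpR library. GLRX3 was higher in TxCpR than in TxR (17.4 and 18.4 against 14.8 and 11.2 CPM, log2 difference 0.46, SE 0.17, adjusted p = 0.0464). That call was lost with median-ratio scaling (0.21, adjusted p = 0.427), in edgeR (adjusted p = 0.470) and DESeq2 (adjusted p = 0.619), and without the second TxR library (adjusted p = 0.436) or the first or second TxCpR library (adjusted p = 0.13 and 0.199).

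All 3 phosphatase and kinase genes were lower in CpR. PPP2R2D, which encodes a regulatory subunit of protein phosphatase 2A (chr10:131900231-131901231), stood at 26.6 and 23.8 CPM in Control, 12.2 and 8.30 CPM in CpR, 20.8 and 23.4 CPM in TxR and 20.8 and 23.4 CPM in TxCpR. INPP5A, an inositol phosphatase gene (chr10:132537093-132538093), stood at 61.4 and 52.0 CPM in Control and at 28.9 and 33.0 CPM in CpR. The kinase gene STK32C (chr10:132248797-132249797) stood at 13.4 and 18.4 CPM in Control and at 2.93 and 4.33 CPM in CpR. Its CpR ratio of 0.228 was the lowest among the 12 gene peaks of 10 CPM or more. Their adjusted p was 0.068 to 0.481 in TxR and 0.128 to 0.750 in TxCpR, above the threshold.

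In the list of cytoskeleton and centrosome genes, 4 of 5 had a peak. Of these, 3 were called lower in TxR, where 9.47% of all promoter peaks were, and 4 lay below Control without overlap in CpR, where 49.5% did. The list held TUBGCP2, a gene of the microtubule-nucleating gamma-tubulin complex without a peak, JAKMIP3, a microtubule-binding gene, DPYSL4, of the collapsin response family, KNDC1, a neuronal Ras exchange factor gene, and CFAP46, a cilium gene. DPYSL4 (chr10:132186166-132187166) stood at 13.6 and 15.7 CPM in Control, 2.14 and 5.73 CPM in CpR, 7.89 and 6.74 CPM in TxR and 6.55 and 8.81 CPM in TxCpR. Every resistant library lay below both Control libraries. The log2 difference was -0.96 (SE 0.25, adjusted p = 0.00268) in TxR and -0.90 (SE 0.25, adjusted p = 0.00648) in TxCpR. JAKMIP3 was lower in TxR (-1.12, SE 0.37, adjusted p = 0.0239), as was KNDC1 (-0.86, SE 0.30, adjusted p = 0.0327), whereas CFAP46 was weak (1.95 and 2.96 CPM in Control) and had -0.22 (adjusted p = 0.795). The DPYSL4 call was lost without the second Control library (adjusted p = 0.0712 in TxR and 0.110 in TxCpR), without the second TxR library (0.0607) and without the first TxCpR library (0.194), and in DESeq2 for TxR (0.0733). The JAKMIP3 and KNDC1 calls were lost with median-ratio scaling (adjusted p = 0.0571 and 0.0953), in DESeq2 (0.132 and 0.263), and without the first Control (0.120 and 0.135), the second Control (0.115 and 0.142) or the first TxR library (0.194 and 0.339).

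ZNF511, a zinc finger gene whose start is shared with the read-through gene ZNF511-PRAP1 (chr10:133308634-133309634), stood at 30.4 and 33.5 CPM in Control, 11.4 and 11.8 CPM in CpR, 24.9 and 21.5 CPM in TxR and 20.3 and 26.0 CPM in TxCpR. It was lower than Control in TxR (-0.46, SE 0.15, adjusted p = 0.0228) and in TxCpR (-0.47, SE 0.15, adjusted p = 0.0236). Median-ratio scaling ended the TxR call (-0.29, adjusted p = 0.204), as did edgeR (adjusted p = 0.151) and DESeq2 (0.361), and quantile and loess scaling ended the TxCpR call (adjusted p = 0.115 and 0.0740). Leaving out the first or second Control library gave an adjusted p of 0.0559 and 0.199 in TxR and of 0.0608 and 0.205 in TxCpR. Without the second TxR library it was 0.243, and without the first TxCpR library 0.393.

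In the list of developmental transcription factors, VENTX and UTF1 had a peak and NKX6-2 had none. VENTX, a homeobox gene (chr10:133237044-133238044), stood at 7.54 and 7.47 CPM in Control and at 0.900 and 0.935 CPM in CpR, with 4.74 and 7.42 CPM in TxR and 5.56 and 5.48 CPM in TxCpR. UTF1, a gene of pluripotent cells (chr10:133228890-133229890), stood at 2.08 and 3.86 CPM in Control and at 0.450 and 0.117 CPM in CpR, the latter 1 read. SYCE1, from the list of other genes (chr10:133568562-133569562) stood at 3.64 and 2.70 CPM in Control and at 0.225 and 0.234 CPM in CpR, which is 2 reads per library. Both CpR levels of SYCE1 were below the level that 3 reads give, as was 1 of those of UTF1, so both ratios are loosely set. In TxR and TxCpR the adjusted p of these 3 genes was 0.263 to 0.934.

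The remaining gene peaks past the drop were also lower in CpR. The metabolic genes FUOM, which encodes a fucose mutarotase, and PAOX had CpR ratios of 0.542 and 0.573. In the membrane and surface list 4 of 6 genes had a peak (ADAM8, ADGRA1, CALY and PRAP1), all lower in CpR with ratios of 0.339 to 0.455. LRRC27 had a CpR ratio of 0.387 (21.9 CPM in Control and 8.49 CPM in CpR). C10orf143, before the drop, was higher in TxR than in Control (121 and 119 CPM, log2 difference 0.25, SE 0.07, adjusted p = 0.00966) and lower in TxCpR than in TxR (-0.21, adjusted p = 0.0295). Both calls depended on the scaling: the TxR difference shrank to 0.06 after quantile (adjusted p = 0.667) and 0.04 after loess scaling (adjusted p = 0.806), and the TxCpR minus TxR difference changed sign, to 0.15 (adjusted p = 0.170) and 0.24 (adjusted p = 0.0170). Both calls were also lost without the first or second TxR library, the former without the second Control library (adjusted p = 0.138), and the latter without the first TxCpR library (adjusted p = 0.181).

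Away from gene starts, 2 sites were low in both single-resistant lines and near the Control level in TxCpR. A peak inside JAKMIP3 (chr10:132065434-132066434) stood at 11.7 and 14.8 CPM in Control, 0.225 and 1.17 CPM in CpR, 2.31 and 2.47 CPM in TxR and 13.5 and 15.8 CPM in TxCpR. It was lower in TxR than in Control (log2 difference -2.24, adjusted p = 1.37e-09) and higher in TxCpR than in TxR (2.39, SE 0.30, adjusted p = 1.99e-10). A peak inside CYP2E1 (chr10:133528541-133529541) stood at 13.1 and 14.3 CPM in Control, 1.69 and 0.702 CPM in CpR, 2.79 and 3.26 CPM in TxR and 10.6 and 12.9 CPM in TxCpR. Its TxR difference was -2.01 (adjusted p = 5.24e-09), and TxCpR exceeded TxR by 1.80 (adjusted p = 1.88e-07). The TxCpR libraries overlapped Control at the JAKMIP3 site and lay below it at the CYP2E1 site, with differences of 0.14 (adjusted p = 0.825) and -0.22 (adjusted p = 0.694). The lowest CpR difference was at a site inside CALY and ZNF511-PRAP1 (chr10:133325193-133326193), at 8.32 and 8.88 CPM in Control and at 0.225 and 0 CPM in CpR.

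The fourth-strongest member, inside LRRC27 (chr10:132334984-132335984), stood at 108 and 118 CPM in Control, 41.3 and 44.3 CPM in CpR, 125 and 123 CPM in TxR and 103 and 82.6 CPM in TxCpR. TxR lay above Control there without passing the test (0.14, adjusted p = 0.303). TxCpR was lower than TxR (-0.42, adjusted p = 5.02e-05) and than Control (-0.29, adjusted p = 0.0118). With quantile scaling these differences shrank to -0.06 and -0.10 and with loess to -0.03 and -0.07, none of them called, and the call against Control was also lost without the second Control library (adjusted p = 0.222) or the second TxCpR library (adjusted p = 0.458).

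The microRNA gene MIR202 lies at a member peak (chr10:133246525-133247525). miR-202 is a microRNA of the gonads, and its arms are given with the seed (bases 2 to 8) in capitals, from RefSeq.

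hsa-miR-202-3p: aGAGGUAUagggcaugggaa
hsa-miR-202-5p: uUCCUAUGcauauacuucuuug

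The peak reached the edge of the hairpin, not its mature arms, and stood at 8.97 and 7.72 CPM in Control, 3.04 and 1.87 CPM in CpR, 3.40 and 3.82 CPM in TxR and 4.33 and 4.51 CPM in TxCpR. All resistant libraries lay below both Control libraries. The log2 difference was -1.10 (SE 0.30, adjusted p = 0.00397) in TxR and -0.84 (SE 0.30, adjusted p = 0.0446) in TxCpR. The TxR call was lost in DESeq2 (adjusted p = 0.0507) and without the first Control library (0.0746), and the TxCpR call without any 1 of the Control or TxCpR libraries (adjusted p = 0.107 to 0.258). This peak was named after its values were seen.

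TxR had the second-lowest summed signal, and its called members were densest at the very end. The median member difference from Control was -0.46, against -0.14 over all tested peaks and -0.24 over the rest of chromosome 10. By limma, 76 members were lower (19.9%, where 9.17% of all tested peaks were lower) and 7 were higher (where 7.26% of all were higher). The Control libraries are the same as in the contrast that chose the stretch. In the last zone 35 of 48 members were lower. Of these, 29 were among the 31 members in the DUX4-like repeat array, whose peaks may not be separate measurements. In the rest of the stretch 41 of 333 were lower (12.3%), close to the 12.9% on the rest of chromosome 10. The count was 50 without the first and 42 without the second Control library and 46 without the first TxR library, and median-ratio scaling gave 49 and DESeq2 32. Over all 158698 tested peaks, median-ratio scaling called 10262 lower and DESeq2 6362, beside 14557 in the main fit. Median-ratio, quantile and loess scaling brought the median of all tested peaks to between -0.04 and 0.00 and left the members 0.30 to 0.31 below it, beside 0.32 in the values as deposited.

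TxCpR was the line closest to Control. Its Control libraries are shared with the contrast that chose the stretch. Its median member difference was -0.12, against 0.08 over all tested peaks. By limma, 27 members were lower (7.09%, against 5.39% of all tested peaks) and 7 were higher (against 8.11%). Of the 27, 16 lay in the last zone, 14 of them in the DUX4-like repeat array. Outside the last zone, 11 of 333 members were lower (3.30%), below the share over all peaks. The count was 14 and 9 without the first and second Control library and 8 without the first TxCpR library. With quantile or loess scaling, 36 were lower and 4 higher, in edgeR 40 and 7, and in DESeq2 19 and 0. At an unadjusted p under 0.05, 9 were higher in DESeq2. Over all 158698 tested peaks, 8940 were lower with quantile scaling, 8550 with loess, 11685 in edgeR and 7197 in DESeq2, beside 8561 as deposited. Higher ones numbered 10070, 10834, 10118 and 6659, beside 12864. Among the higher members was a site between BNIP3 and JAKMIP3 (chr10:132001153-132002153), at 4.68 and 6.56 CPM in Control and at 10.3 and 11.1 CPM in TxCpR (0.88, adjusted p = 0.0252), a call lost in DESeq2 (adjusted p = 0.127) and without the first Control library (adjusted p = 0.276) or the first or second TxCpR library (adjusted p = 0.125 and 0.174).

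**Figure D4:**
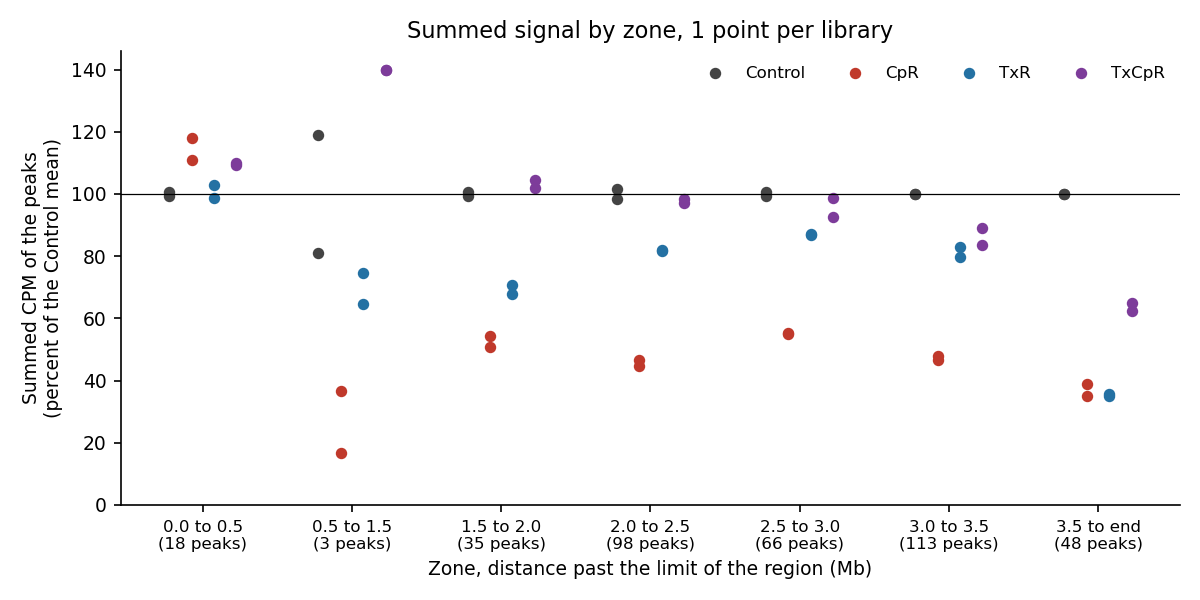
Summed CPM of the members of each zone as a percent of the Control mean (y axis), by distance past the limit (x axis, Mb), 1 point per library. The CpR points fall below 60 from the second zone on, TxR reaches the CpR level only in the last zone, and TxCpR averages 0.956 to 1.03 of Control from 1.5 to 3 Mb past the limit and 0.637 in the last zone.

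The comparison of the dual-resistant with the paclitaxel-resistant line leaves out both groups that chose the stretch. TxCpR was higher than TxR in 46 members (12.1%, where 14.9% of all tested peaks were higher) and lower in 9 (where 7.44% of all were lower). The median difference was 0.35, against 0.23 over all tested peaks and 0.31 on the rest of chromosome 10, 0.13 above the median of all peaks (0.09 to 0.11 above it after the 3 other scalings). With median-ratio scaling, 25 members were higher and 18 lower, with quantile 22 and 12, with loess 23 and 13, in edgeR 26 and 20 and in DESeq2 15 and 11. The first count was 29 without the first TxR library, 23 without the first and 26 without the second TxCpR library, and the second was 5 without the second TxR library and 4 without the first TxCpR library. Over all tested peaks, median-ratio scaling called 14261 higher and 19593 lower, and DESeq2 8416 and 14937, beside 23681 and 11803 in the main fit. Quantile scaling called 12354 and 12118, loess 12482 and 13671 and edgeR 13269 and 20170. Of the 46, 12 lay in the last zone, and 9 between 1.5 and 2 Mb past the limit.

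The last zone holds the DUX4-like repeats. RefSeq places 14 DUX4-like units at chr10:133664429-133761135, and 24 members lay over a unit. Their summed signal was 244 and 242 CPM in Control, 65.1 and 72.1 CPM in CpR, 85.0 and 95.2 CPM in TxR and 136 and 138 CPM in TxCpR. No groups overlapped, and the means were 0.282, 0.370 and 0.563 of Control. All 24 were lower in TxR by limma (median log2 difference -1.33, range -2.26 to -0.81), where 9.17% of all tested peaks were, and 12 were lower in TxCpR (median -0.74), where 5.39% were. In CpR all 24 lay below Control without overlap (median -1.69), where 34.5% did.

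The 4q array moved in the same order. RefSeq places 8 units at chr4:190067935-190092289, with 10 peaks over them. Their sums were 97.9 and 87.8 CPM in Control, 33.1 and 36.4 CPM in CpR, 43.8 and 42.8 CPM in TxR and 73.2 and 64.2 CPM in TxCpR. By limma 8 of the 10 were lower in TxR and 1 in TxCpR, beside the same 9.17% and 5.39% of all tested peaks. These units, and the flanking sequence the 2 chromosome ends share, are near-identical, and how reads that fit several places were handled is not stated in the sources. Values of the 2 arrays are therefore uncertain. The 2 arrays, and the peaks within 1 array, may not be separate measurements. Both sets were picked after their values were seen.

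**Figure D5:**
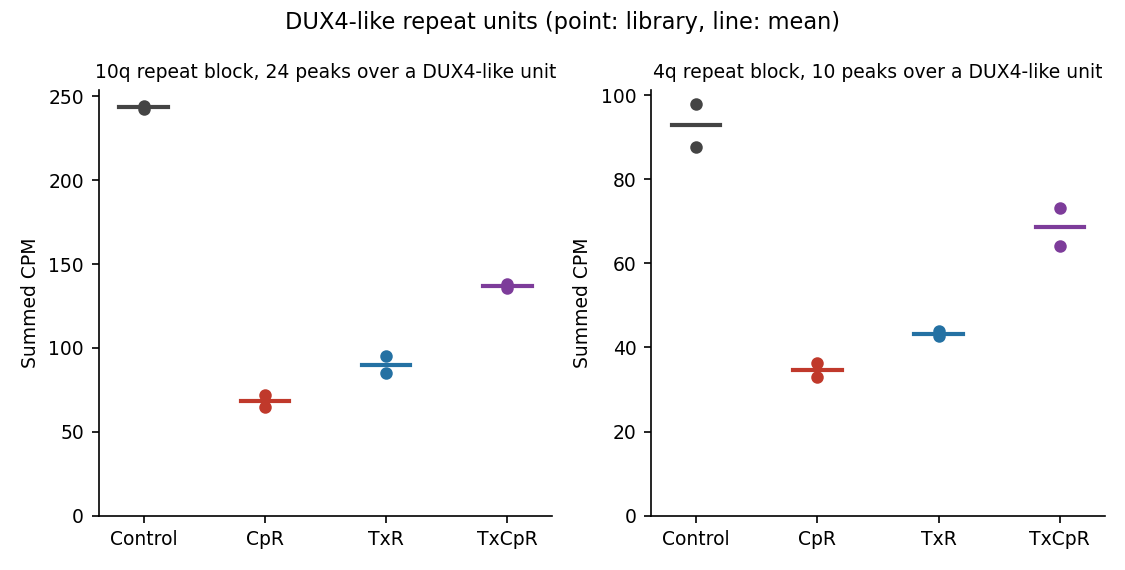
Summed CPM (y axis) of the peaks over DUX4-like units at the end of 10q (24 peaks) and of 4q (10 peaks) by group (x axis), with 1 point per library and a line at the mean. Control is the highest group in both panels, TxCpR the second, and TxR and CpR are the lowest.

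The strongest member lay between units of the array (chr10:133687850-133688850). It stood at 298 and 298 CPM in Control, 95.8 and 114 CPM in CpR, 69.7 and 69.7 CPM in TxR and 177 and 173 CPM in TxCpR. TxR was the lowest group here, below CpR. Its difference from Control was -2.09 (SE 0.07, adjusted p = 1.41e-48) in TxR and -0.77 (adjusted p = 8.61e-17) in TxCpR, and TxCpR exceeded TxR by 1.32 (adjusted p = 6.86e-32). The adjacent peak (chr10:133688869-133689869) had the same order, with 167 and 168 CPM in Control, 69.6 and 72.1 CPM in CpR, 52.8 and 48.3 CPM in TxR and 107 and 86.0 CPM in TxCpR.

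The last 2 members, beyond the array, were near the Control level in CpR. The peak at chr10:133775635-133776635 stood at 5.33 and 4.25 CPM in Control, 6.08 and 4.68 CPM in CpR, 2.31 and 1.57 CPM in TxR and 8.41 and 6.99 CPM in TxCpR. It was lower in TxR (-1.12, adjusted p = 0.00266) and higher in TxCpR than in TxR (1.76, adjusted p = 1.02e-06). The call in TxR was lost in DESeq2 (adjusted p = 0.0623) and without the first Control (0.0646) or second TxR library (0.0645). The outermost member, at chr10:133786339-133787339, had a CpR difference of -0.13.

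Against the general loss, 24 members were higher in CpR than in Control without overlap, 19 of them more than 0.5 Mb past the limit. Of the 24, 1 lay at a promoter, 14 inside genes and 9 outside genes, and in 19 the other 3 groups all averaged under 3 CPM. The largest, between genes proximal to INPP5A (chr10:132532314-132533314), stood at 0.910 and 0.644 CPM in Control, 14.1 and 14.0 CPM in CpR, 0.121 and 0.562 CPM in TxR and 0.618 and 0.322 CPM in TxCpR. A site inside PPP2R2D (chr10:131946424-131947424) stood at 0.520 and 0.515 CPM in Control and at 8.44 and 7.60 CPM in CpR, while the start of the same gene was lower in CpR. A site outside genes (chr10:133259099-133260099) stood at 2.99 and 5.53 CPM in Control and at 15.3 and 10.3 CPM in CpR. In 11 of the 24 the CpR mean was at least 4 times the Control mean. Of the 24, 4 lay inside STK32C and 3 inside INPP5A, and at 2 of those in STK32C TxR was lower than Control by limma.

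Of the 7 members higher in TxR, neighbouring peaks at chr10:132516853-132517853 and chr10:132518117-132519117 stood at 13.8 and 12.7 and at 12.2 and 11.1 CPM in Control. They stood at 25.3 and 23.7 and at 24.3 and 21.8 CPM in TxR (0.86, adjusted p = 3.78e-05, and 0.95, adjusted p = 3.00e-05). In TxCpR both were lower than in TxR (-0.67, adjusted p = 0.00168, and -0.75, adjusted p = 0.00130), the former not without the first TxCpR library (adjusted p = 0.124). A peak at chr10:133257276-133258276 was higher than Control in both TxR (16.1 and 13.9 against 5.85 and 8.75 CPM, 1.02) and TxCpR (14.0 and 11.7 CPM, 0.79, adjusted p = 0.00302). Its TxCpR call was lost in DESeq2 (adjusted p = 0.0703) and without the first Control (0.186) or first TxCpR library (0.109).

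The members differed from other peaks in the library they were named after. Each consensus peak carries the name of a peak of 1 library, and 37.0% of members were named after a Control peak against 3.18% of all peaks. Names from CpR made up 7.87% of members and 34.3% of all peaks, and those from TxCpR 40.9% and 39.5%. Of the 24 members higher in CpR, 23 were named after a CpR peak. The part of this naming in the counts was not tested.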

How the data were processed

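ATAC-seq signal was analysed in 8 A2780 libraries, 2 for each of 4 groups taken from the labels. The authors deposited 1 table of CPM (read counts scaled to each library's total in peaks) for 159451 consensus peaks of 1001 bp. Per the submitters' processing notes, Bowtie2, Picard, MACS2 and hg38 were used, with versions and settings not given in the sources used here. Every value was a whole multiple of 1 read (100% within 0.01 read), which gave depths of 7693492 to 9304798 reads, and 3 reads amount to 0.322 to 0.390 CPM. A floor of this kind covers counting error only.

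The 158698 peaks that reached 1 CPM in 2 or more libraries were tested on log2(CPM + 0.5) with limma 3.58.1 in R 4.3.3, all 4 groups in 1 fit (4 residual and 98.5 prior degrees of freedom), with Benjamini-Hochberg adjustment over all of them and a threshold of 0.05. On the recovered reads, edgeR 4.0.16 called 9793 peaks lower and 15479 higher in TxR than in Control, beside 14557 and 11525 by limma; DESeq2 1.42.0 was a second alternative. The test was tested on simulated data for TxR minus Control over 158698 peaks. It recovered 94% of 50 peaks lowered by 2 log2 units, 46% of those lowered by 1, 52% of those raised by 1 and 100% of those raised by 2, with 7 false calls. The changes were placed only on peaks with a mean above 3 CPM, and every peak was given the same spread. These recovery rates therefore do not cover the 192 of 381 members under 3 CPM.

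Named peaks were the gene peaks with a mean of 10 CPM or more, the 8 strongest members, the 5 highest and 5 lowest members per comparison with a mean of 3 CPM or more, the 3 peaks on either side of the limit, and listed neighbour genes. The stretch, its members and the gene lists were chosen with earlier results of these data known. Genes, promoters and microRNAs came from RefSeq (GRCh38.p14); a promoter peak lies within 1 kb of a start.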

Additional observations from a re-analysis of the deposited data

Results flagged for a closer look

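The tested difference between the dual-resistant and the paclitaxel-resistant line called 46 members higher in TxCpR (12.1%, where 14.9% of all tested peaks were) and 9 lower (2.36%, where 7.44% were), by limma at an adjusted p under 0.05. Both shares were below those over all peaks. Among named peaks, the log2 difference was 2.39 at the site inside JAKMIP3 (chr10:132065434-132066434), 1.80 inside CYP2E1, 1.76 at the peak beyond the repeats (chr10:133775635-133776635), 1.56 at a second site inside JAKMIP3 (chr10:132176002-132177002), 1.51 at chr10:131839758-131840758 and 0.46 at GLRX3. It was -1.72 at a site inside ZNF511-PRAP1 (chr10:133346842-133347842), -0.85 at chr10:133431841-133432841, -0.75 at chr10:132518117-132519117, -0.62 at ECHS1 and -0.21 at C10orf143.

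Some members moved in opposite ways in 2 lines, a difference that was not tested. In 17 members both CpR libraries lay below Control and both TxR libraries above it, and in 10 the reverse held. These are 4.46% and 2.62% of members, beside 5.59% and 7.93% of all tested peaks. For CpR and TxCpR the counts were 48 and 5, or 12.6% and 1.31%, beside 8.73% and 5.53% of all tested peaks. Each such pair of lines is compared with the same Control libraries.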

How the results depend on the processing

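The counts of called members depended on the setting, and the cause was not tested. Counts over all tested peaks depended on it as well. Of these, 14557 were lower in TxR, 10262 with median-ratio scaling and 6362 in DESeq2. Those higher in TxR numbered 11525, 16299 with median-ratio scaling and 15479 in edgeR. Members lower in TxR numbered 76, 49 with median-ratio scaling, 32 in DESeq2, 41 without the last zone and 42 to 55 with 1 library left out. Those higher in TxR numbered 7, 11 with median-ratio scaling and in edgeR, and 3 to 7 with 1 library left out. Members lower in TxCpR numbered 27, 36 with median-ratio, quantile or loess scaling, 40 in edgeR and 19 in DESeq2. They numbered 18 and 37 with pseudocounts of 0.1 and 2, and 11 without the last zone. Fewer were lower with any 1 Control or TxCpR library left out. Those higher in TxCpR numbered 7, 4 with a pseudocount of 0.1, quantile or loess scaling, 7 in edgeR and 0 in DESeq2. In DESeq2 9 were higher at an unadjusted p under 0.05. Fewer were higher with any 1 Control or TxCpR library left out. For TxCpR minus TxR, 9 were lower, 18 with median-ratio scaling, 20 in edgeR and 4 to 8 with 1 library left out, and 46 were higher, 25 with median-ratio, 22 with quantile and 23 with loess scaling, 26 in edgeR, 15 in DESeq2 and 23 to 34 with 1 library left out. The median CpR difference of -1.07 became -1.26 and -0.71 with pseudocounts of 0.1 and 2, -0.97, -1.22 and -1.01 with median-ratio, quantile and loess scaling, -1.23 at a mean of at least 5 CPM, -0.97 with the limit 2 Mb nearer the centromere, -1.01 without the last zone and -1.08 to -1.02 with 1 library left out. In the same order the TxR median of -0.46 became -0.52, -0.32, -0.31, -0.35, -0.30, -0.38, -0.43, -0.40 and -0.48 to -0.42. The TxCpR median of -0.12 became -0.18, -0.25 and -0.21 with the 3 scalings and -0.15 to -0.10 with 1 library left out. Of 924 alternatives for 66 named calls, 746 counted as unchanged, 176 lost the call and 2 reversed. Both reversals were at C10orf143 in TxCpR minus TxR (0.15 with quantile and 0.24 with loess scaling). For each call, 1 alternative only subtracted the members' median difference. It was not tested and counted as unchanged unless the sign turned, so the 746 overstate how many calls were kept. With a replicate block the counts were 77 lower and 7 higher in TxR, 28 and 7 in TxCpR, and 9 and 47 for TxCpR minus TxR. Same-numbered libraries did not deviate together (correlations of -0.00059 to 0.0033), so the numbers do not pair them. The 0.5 Mb break and leaving out the last zone were chosen after seeing the data. Where 1 library was left out, the lone library was assumed to vary like the other groups. With 2 libraries a group and many members under 3 CPM, changes of 1 log2 unit were often not detectable.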
